A study of Schizosaccharomyces pombe with 4 samples.

Results

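The nuclear exosome and RNA surveillance genes of the fission yeast Schizosaccharomyces pombe were followed on both strands in cells carrying spt6-1, a mutant allele of the elongation factor and histone chaperone gene spt6, and in wild type (WT). Genes were taken by symbol from a list of 9 (dis3, rrp6, mtr4, mtl1, red1, mmi1, cid14, pab2 and dhp1), and 8 of them were found among the 7023 annotated features measured. The symbol mtl1 labels no row. RefSeq gives that name to SPAC17H9.02, which is described beside the 8 and not counted with them. The 4 libraries were strand-specific RNA-seq of polyadenylated RNA, 2 from spt6-1 and 2 from WT, all from prototrophic strains grown in rich YES medium at 30 °C and held at 37 °C for 2 h, so that the WT libraries also come from heated cells. No label says that the replicates were separate cultures, and the p-values then measure only the spread between these libraries, which may be technical. Values are RPKM (reads per kilobase, scaled by the authors' denominator for each library), with sense RPKM per exon length and antisense RPKM per length of the whole locus, and pairs of values are given in the order replicate 1, replicate 2.

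The exosome is a multi-subunit complex that degrades RNA from its 3′ end, and in the nucleus it trims stable RNAs and removes unstable ones, antisense and other non-coding transcripts among them. Dis3 and Rrp6 are its nucleases. Helicase complexes feed it: TRAMP holds the helicase Mtr4 and the poly(A) polymerase Cid14, and a second complex, MTREC, holds the related helicase Mtl1 and the scaffold protein Red1. Mmi1 binds meiotic transcripts in growing cells and hands them to this machinery together with Red1 and the poly(A)-binding protein Pab2, while Dhp1 degrades RNA from the 5′ end and acts in transcription termination.

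Recovered sense reads numbered 39693042 and 16894607 in spt6-1 and 36520471 and 17093322 in WT. Over protein-coding genes the median sense level was 28.6 and 28.1 RPKM in spt6-1, against 26.97 and 28.2 in WT, and the median antisense level was 3.97 and 3.43 RPKM in spt6-1, against 0.496 and 0.462 in WT. Sense RNA of the mutated gene, spt6, was 12.7 and 8.32 RPKM in spt6-1 and 65.5 and 61.6 RPKM in WT, 5.93-fold lower (limma adjusted p = 5.39e-04). Tests compared log2(RPKM + 0.5) between the groups with limma, two-sided, with Benjamini-Hochberg adjustment over all features tested, and folds and log2 changes are on that scale, which understates changes of low values. In RNA from whole cultures, more RNA in every cell and more cells that hold it cannot be told apart.

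On the sense strand 2 of the 8 genes, dis3 and mtr4, were lower in spt6-1, none was higher, and 6 did not pass the test. At an unadjusted p under 0.05 limma had 3 lower and 0 higher, and limma with voom weights on recovered reads also called 0 higher. The median log2 change of the 8 was -0.39, against 0.03 for the protein-coding genes tested. Of 6547 features tested, 6.67% were called lower and 21.8% higher, and among the 5060 protein-coding genes of the same fit 8.2% were lower and 12.1% higher. In 5 of the 8 genes both spt6-1 values lay below both WT values, as in 30.7% of protein-coding genes, and in none did both lie above, as in 33%. On the antisense strand 7 of the 8 were higher in spt6-1, where 81.9% of 4728 protein-coding genes tested were called higher and 1.65% lower, and the exception was dhp1. In those 7 both spt6-1 values lay above both WT values, as in 87.1% of genes, and in dhp1 both lay below, as in 3.83%. All 8 passed both filters on low values, but cid14, rrp6, red1 and mmi1, like mtl1, were under 0.5 antisense RPKM in both WT libraries and passed the antisense filter through the spt6-1 libraries alone. A difference of those 4 was therefore built into the filter, and their antisense p-values are given from a fit with no filter on low values. In that fit, too, 7 of the 8 were higher, where 79.8% of 5134 genes were called higher and 1.42% lower.

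**Figure D1:**
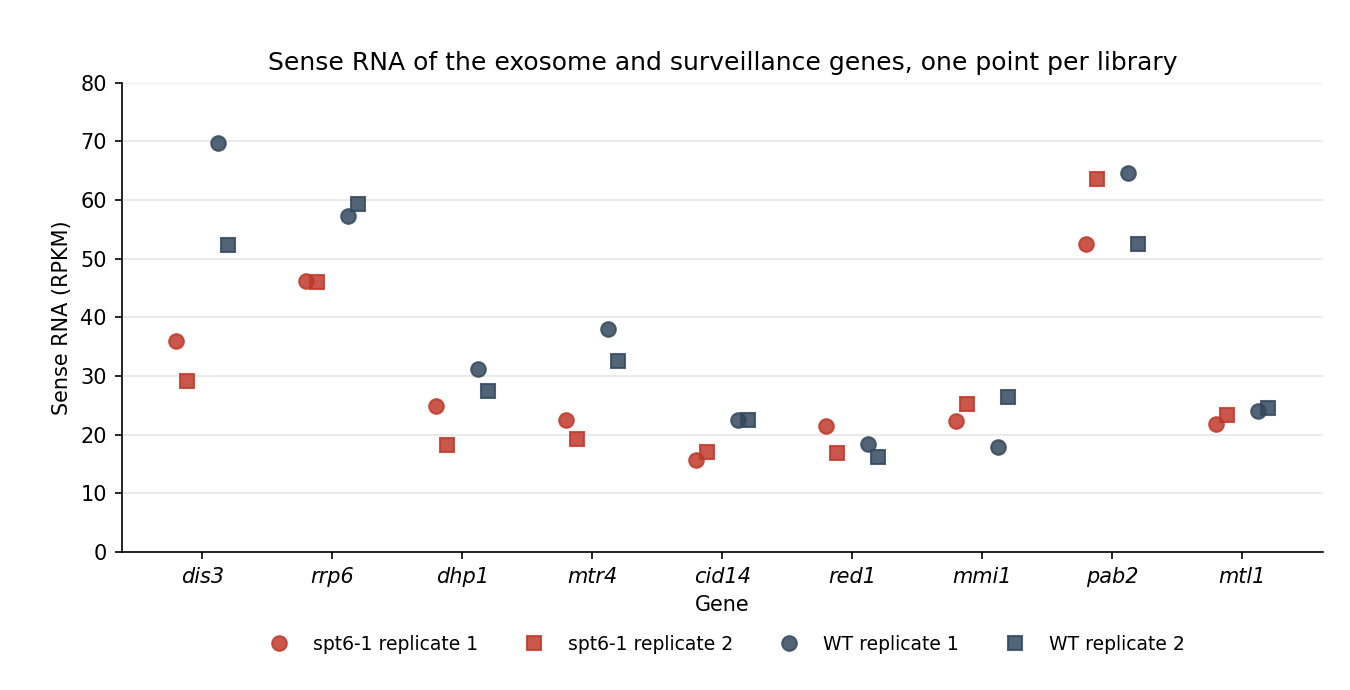
Sense RNA (RPKM, linear axis from 0) of the 8 genes and mtl1 in each library; circles are replicate 1, squares replicate 2, red is spt6-1 and blue-grey is WT. The spt6-1 points of dis3 (36.0 and 29.2) and mtr4 (22.5 and 19.3) lie below the WT points (69.8 and 52.4; 38.0 and 32.6), and the points of red1, mmi1 and pab2 overlap.

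**Figure D2:**
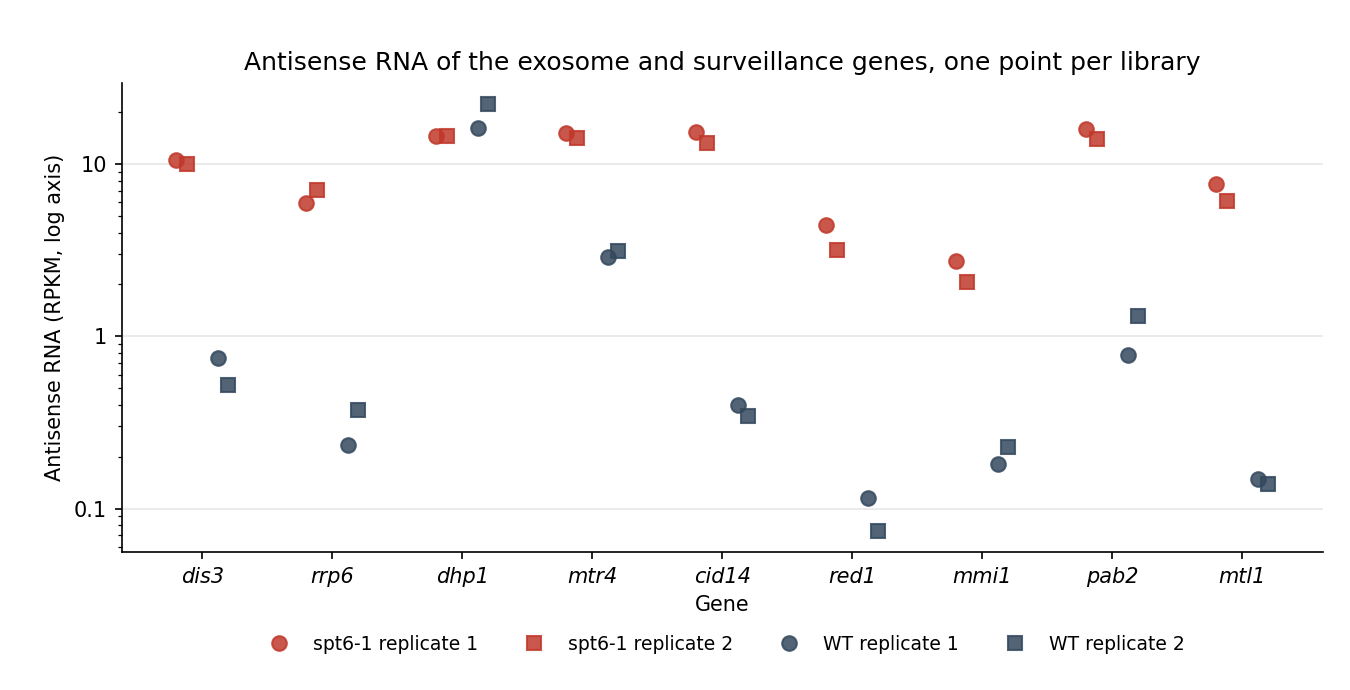
Antisense RNA (RPKM, log axis) of the same genes in each library, drawn in the same way. Both spt6-1 points stand above both WT points in each gene except dhp1, where 14.5 and 14.5 RPKM in spt6-1 lie under 16.2 and 22.3 RPKM in WT.

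The widest antisense change among the 8 genes, on the log2(RPKM + 0.5) scale, was that of cid14 (SPAC12G12.13c, chromosome I 321764 to 324129, plus strand, no intron), the poly(A) polymerase gene of TRAMP. It held 15.3 and 13.2 antisense RPKM in spt6-1, against 0.400 and 0.344 RPKM in WT, means of 14.3 ± 1.45 and 0.372 ± 0.0397 (SD, n = 2 each). These values rest on 1013 and 541 reads in spt6-1 and 34 and 14 reads in WT. The groups stood far apart, 16.9-fold (log2 change 4.08, limma adjusted p = 8.91e-05 with no filter). Most of the spt6-1 antisense reads fell in a short stretch at the gene's 5′ end that is annotated as a non-coding RNA. This RNA, SPNCRNA.638 (chromosome I 321796 to 322578, minus strand), lies wholly inside cid14 and covers 33.1% of it. It accounted for 87.7% and 85.2% of the antisense reads of cid14 in spt6-1, and for 41.2% and 50% in WT, where those shares are 14 of 34 and 7 of 14 reads. Over the other 1583 bases antisense RNA was 2.82 and 2.93 RPKM in spt6-1, against 0.352 and 0.257 RPKM in WT, so the groups did not overlap there either. These bases still include 88 shared with SPAC12G12.12, another minus-strand gene, whose reads were not taken off. An exact permutation test of 2 against 2 libraries cannot give a p below 0.333, so such single values were not tested further.

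The window at the annotated start of SPNCRNA.638 is shown because most of the spt6-1 antisense reads fell in this annotated RNA. The counts do not show where the antisense RNA in spt6-1 begins. All 300 of its bases are coding sequence of cid14 read on the opposite strand, chrI:322529-322828, minus strand, from RefSeq's ASM294v3, in which this RNA has the same coordinates as in the deposited table. The first 250 bases precede the start and the capitals mark the first 50 bases of the RNA.
SPNCRNA.638: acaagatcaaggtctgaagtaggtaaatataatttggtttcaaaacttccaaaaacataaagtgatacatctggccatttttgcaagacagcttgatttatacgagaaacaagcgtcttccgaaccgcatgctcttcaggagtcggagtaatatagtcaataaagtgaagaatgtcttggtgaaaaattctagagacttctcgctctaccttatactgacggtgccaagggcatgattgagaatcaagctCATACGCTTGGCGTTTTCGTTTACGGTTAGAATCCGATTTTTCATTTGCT
The window is 39% G and C. The letters TATAAA were searched on both strands: they were not found on the strand of the RNA and occurred 1 time on the other strand, beginning at base 97 of the window. They occur on either strand in 42.8% of 7133 such windows at RefSeq non-coding RNA starts and in 48.1% of 5112 at protein-coding starts, so a match is common and only describes these letters.

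Sense RNA of cid14 was 15.8 and 17.1 RPKM in spt6-1 and 22.5 and 22.5 RPKM in WT, and the groups did not overlap. The difference did not pass the adjustment (log2 change -0.44, 95% interval -0.86 to -0.03, limma adjusted p = 0.107). Splitting the sense reads by position showed unequal sizes of difference along the gene. Opposite SPNCRNA.638 sense RNA was 22.2 and 24.5 RPKM in spt6-1, against 36.6 and 35.9 RPKM in WT. Over the rest of the locus it was 12.6 and 13.4 RPKM in spt6-1, against 15.5 and 15.9 RPKM in WT. The 5′ stretch held 46.6% and 47.4% of the gene's sense reads in spt6-1 and 53.9% and 52.8% in WT. The 5′ end of cid14 also shares 62 bases with pfs2, a gene on the same strand, whose reads there were not taken off. Antisense RNA made up 49.2% and 43.7% of the RPKM of both strands at cid14 in spt6-1, and 1.75% and 1.5% in WT.

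**Figure D3:**
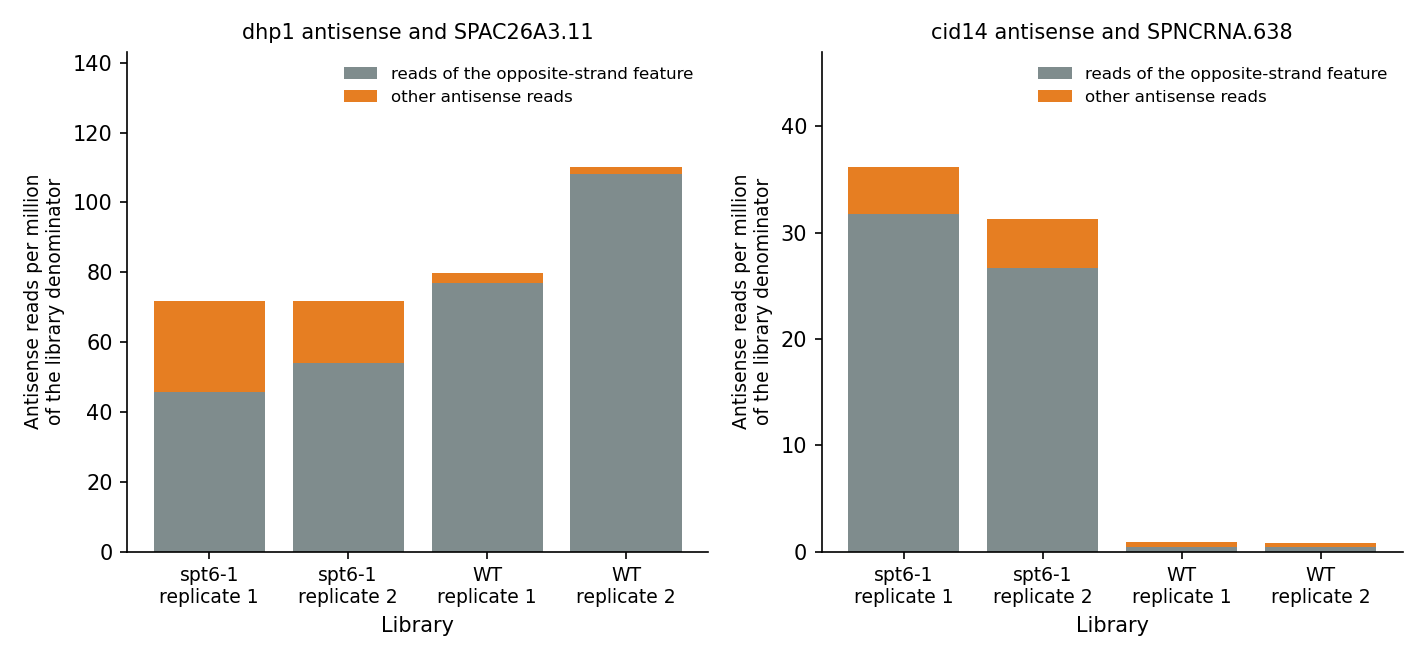
Antisense reads of dhp1 (left) and cid14 (right) in each library, scaled by the authors' library denominator, in bars from 0; grey is the part that is sense reads of an annotated feature lying wholly inside the gene on the other strand, orange the rest. At dhp1 the grey part is 63.8% and 75.4% of the bar in spt6-1 and 96.5% and 98.2% in WT; at cid14 nearly the whole signal is in the spt6-1 bars.

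The gene of the 5′ to 3′ exonuclease Dhp1, dhp1 (SPAC26A3.12c, chromosome I 3356144 to 3361083, minus strand, no intron), was the only one of the 8 whose antisense RNA did not rise. It held 14.5 and 14.5 antisense RPKM in spt6-1, against 16.2 and 22.3 RPKM in WT (log2 change -0.38, 95% interval -0.86 to 0.11, limma adjusted p = 0.132). Without WT replicate 1 it was called lower (log2 change -0.60, limma adjusted p = 0.0388). Its annotated locus runs well past the coding sequence, which ends on the 3′ side at base 3357917, and this non-coding part holds the whole of another coding gene on the plus strand, SPAC26A3.11 (3356375 to 3357902, 1528 bases, 30.9% of dhp1). Reads of that gene are antisense reads of dhp1. They numbered 1281 and 934 of the 2007 and 1239 antisense reads in spt6-1, and 2765 and 1860 of 2866 and 1895 in WT.

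With the reads of SPAC26A3.11 taken off, dhp1 kept 726 and 305 antisense reads in spt6-1, against 101 and 35 in WT. Over the remaining 3412 bases these are 7.60 and 5.18 RPKM in spt6-1 and 0.824 and 0.596 RPKM in WT, means of 6.39 ± 1.72 and 0.710 ± 0.161 (SD, n = 2 each). The difference is 3.16 on the log2 scale without a pseudocount, 8.95-fold higher in spt6-1, with both spt6-1 values above both WT values (two-sided exact permutation p = 0.333, the smallest that 2 against 2 libraries allow). The remaining stretch still includes 154 bases shared with the 3′ end of cnt6, another plus-strand gene, whose reads were not taken off. The nested gene itself had 30.9 and 36.6 sense RPKM in spt6-1, against 52.1 and 73.1 RPKM in WT, 1.82-fold lower (limma adjusted p = 0.0390). The whole-locus antisense value of dhp1 thus sums a part that was lower in spt6-1 and a part that was higher.

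Sense RNA of dhp1 was 24.9 and 18.3 RPKM in spt6-1, against 31.2 and 27.4 RPKM in WT, without overlap, and did not pass the test (log2 change -0.45, 95% interval -0.97 to 0.08, limma adjusted p = 0.180). The values of the 2 parts of the locus lay in opposite directions here too, but the rise in 1 of them did not pass the test. Opposite SPAC26A3.11, sense RNA of dhp1 was 6.92 and 7.05 RPKM in spt6-1, against 4.54 and 5.59 RPKM in WT. These are the antisense values of SPAC26A3.11, whose difference was not called (log2 change 0.43, 95% interval -0.01 to 0.88, limma adjusted p = 0.0652). They hold 8.6% and 11.9% of the sense reads of dhp1 in spt6-1, and 4.5% and 6.3% in WT. Elsewhere it was 32.9 and 23.3 RPKM in spt6-1, against 43.1 and 37.1 RPKM in WT.

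Among the exosome nucleases, dis3 (SPBC26H8.10, chromosome II 3970898 to 3974218, plus strand, 1 intron) encodes the catalytic subunit shared by the nuclear and cytoplasmic exosome and showed the largest sense fall of the 8. It had 36.0 and 29.2 sense RPKM in spt6-1, against 69.8 and 52.4 RPKM in WT, means of 32.6 ± 4.79 and 61.1 ± 12.3 (SD, n = 2 each). It was 1.85-fold lower in spt6-1 (log2 change -0.89, SE 0.24, 95% interval -1.46 to -0.32, limma adjusted p = 0.0331), and the groups did not overlap. The call rests close to the threshold: the adjusted p was 0.0703 without spt6-1 replicate 1, 0.144 without spt6-1 replicate 2, 0.139 without WT replicate 1 and 0.0355 without WT replicate 2, and 0.0753 with no filter on low values. Antisense RNA of dis3 was 10.5 and 9.97 RPKM in spt6-1, against 0.746 and 0.525 RPKM in WT, 9.504-fold higher (log2 change 3.25, SE 0.21, limma adjusted p = 1.33e-06). Antisense RNA was 22.6% and 25.4% of the RPKM of both strands in spt6-1, and 1.06% and 0.993% in WT.

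The nuclear exosome's other nuclease gene, rrp6 (SPAC1F3.01, chromosome I 610842 to 613338, plus strand, 1 intron), was less different on the sense strand. Its libraries agreed closely within groups, with 46.2 and 46.1 sense RPKM in spt6-1 and 57.3 and 59.3 RPKM in WT, and the groups did not overlap. The log2 change of -0.33 (95% interval -0.80 to 0.14) did not pass the test (limma adjusted p = 0.255). Antisense RNA of rrp6 was 5.98 and 7.09 RPKM in spt6-1, against 0.234 and 0.373 RPKM in WT, which are 21 and 16 reads. It was 8.77-fold higher in spt6-1 (log2 change 3.13, limma adjusted p = 9.36e-05 with no filter).

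The helicase gene of TRAMP, mtr4 (SPAC6F12.16c, chromosome I 1344924 to 1348614, minus strand, 1 intron outside the coding sequence), was the second of the 8 to fall on the sense strand. It had 22.5 and 19.3 sense RPKM in spt6-1, against 38.0 and 32.6 RPKM in WT, means of 20.9 ± 2.27 and 35.3 ± 3.79 (SD, n = 2 each). It was 1.67-fold lower in spt6-1 (log2 change -0.74, SE 0.20, 95% interval -1.21 to -0.27, limma adjusted p = 0.0332). Leaving out any 1 library ended the call, with adjusted p from 0.0584 without WT replicate 2 to 0.149 without spt6-1 replicate 2 (0.0817 without spt6-1 replicate 1, 0.137 without WT replicate 1), and so did removing the filter on low values (0.0610).

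At mtr4 antisense RNA was already present in WT, at 2.87 and 3.12 RPKM, the highest WT level of the 8 genes after dhp1. In spt6-1 it was 15.1 and 14.2 RPKM, 4.34-fold higher (log2 change 2.12, SE 0.19, limma adjusted p = 5.33e-06). Antisense RNA made up 40.2% and 42.4% of the RPKM of both strands there in spt6-1, and 7.03% and 8.72% in WT. A non-coding RNA of the opposite strand, SPNCRNA.735 (chromosome I 1343999 to 1345867), overlaps the 3′ end of mtr4 by 944 bases, 25.6% of the gene. Its own level was 22.6 and 20.7 RPKM in spt6-1, against 9.67 and 11.8 RPKM in WT, 1.98-fold higher (limma adjusted p = 0.00988), a smaller difference than that of mtr4 antisense. Since it extends beyond mtr4, the share of its reads inside the gene cannot be read from the table.

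The genes that select RNA for decay showed no sense change past the test. For red1 (SPAC1006.03c, chromosome I 5070931 to 5074055, minus strand, 3 introns), the scaffold of MTREC, sense RNA was 21.5 and 16.8 RPKM in spt6-1, against 18.5 and 16.1 RPKM in WT. The groups overlapped and the log2 change was 0.14 (95% interval -0.35 to 0.62, limma adjusted p = 0.647). Antisense RNA of red1 was the scarcest of the 8 in WT, 0.116 and 0.0744 RPKM from 13 and 4 reads. In spt6-1 it was 4.44 and 3.17 RPKM from 388 and 171 reads, 7.15-fold higher (log2 change 2.84, limma adjusted p = 1.20e-04 with no filter). With so few WT reads this fold is set largely by the pseudocount, and the log2 change was 4.31 with a pseudocount of 0.1 and 2.12 with 1.

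The meiotic transcript binder gene mmi1 (SPCC736.12c, chromosome III 337088 to 340150, minus strand, 4 introns) had the lowest antisense level of the 8 in spt6-1. Antisense RNA was 2.75 and 2.08 RPKM in spt6-1, against 0.182 and 0.228 RPKM in WT, 4.11-fold higher (log2 change 2.04, limma adjusted p = 2.29e-04 with no filter). The log2 change was 3.04 with a pseudocount of 0.1, against 2.26 for mtr4 on that scale, so the order of these 2 genes depends on the pseudocount. Its sense RNA was 22.3 and 25.2 RPKM in spt6-1, against 17.9 and 26.5 RPKM in WT, with WT replicates further apart than the groups (log2 change 0.12, 95% interval -0.44 to 0.69, limma adjusted p = 0.733). No annotated feature overlaps mmi1 on either strand. Its convergent neighbour ago1, the Argonaute gene of RNA interference, ends 17 bases away.

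For pab2 (SPBC16E9.12c, chromosome II 1939371 to 1940829, minus strand, 3 introns), which encodes the nuclear poly(A)-binding protein, sense RNA was 52.5 and 63.6 RPKM in spt6-1, against 64.7 and 52.5 RPKM in WT. These overlap entirely (log2 change -0.01, 95% interval -0.56 to 0.54, limma adjusted p = 0.976). Antisense RNA was 15.9 and 13.97 RPKM in spt6-1, against 0.782 and 1.31 RPKM in WT, 10.1-fold higher (log2 change 3.34, SE 0.23, limma adjusted p = 1.67e-06). The non-coding RNA SPNCRNA.1478 (chromosome II 1940059 to 1941445, plus strand) covers 52.8% of pab2, including its whole coding sequence. It was at 31.3 and 28.8 RPKM in spt6-1, against 2.21 and 2.35 RPKM in WT, 11.0-fold higher (limma adjusted p = 7.39e-05), and it shares reads with pab2 antisense, so the values are not independent.

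The row named mtl1 by RefSeq, SPAC17H9.02 (chromosome I 2004745 to 2008108, plus strand, no intron), encodes the helicase of MTREC. Sense RNA was 21.8 and 23.3 RPKM in spt6-1, against 24.1 and 24.6 RPKM in WT (log2 change -0.11, 95% interval -0.53 to 0.32, limma adjusted p = 0.685). Antisense RNA was 7.65 and 6.08 RPKM in spt6-1, against 0.149 and 0.138 RPKM in WT, 11.4-fold higher (log2 change 3.51, limma adjusted p = 9.02e-05 with no filter). The paired helicase genes thus gave different sense results, called lower for mtr4 and not for mtl1, and the difference between them was not tested.

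Antisense RNA was higher in spt6-1 across most genes, and centring each library on its median antisense value moved the median log2 change of all genes to -0.51, against 1.58 without centring. On that relative scale, cid14 (1.99), pab2 (1.25), dis3 (1.16), rrp6 (1.04) and red1 (0.75) were still called higher in spt6-1, as was mtl1 (1.42). Of the 4728 genes tested, 961 were called higher and 2406 lower on that scale. The centred fit kept the filter, which cid14, rrp6, red1 and mtl1 passed through the spt6-1 libraries alone, so their calls are a description. The change of mtr4 was 0.03 (limma adjusted p = 0.907), that of mmi1 turned to -0.05 (limma adjusted p = 0.791) and dhp1 was called lower (-2.47, limma adjusted p = 6.09e-05). The antisense to sense ratio, taken in each library and tested for 4682 genes, was higher in spt6-1 in 7 of the 8 genes, where 71.7% of all were called higher and 6.04% lower. It was tested past both filters, and cid14, rrp6, red1 and mmi1 passed the antisense filter through the spt6-1 libraries alone. With no filter on low values 7 of the 8 ratios were higher too, where 3382 of 5134 genes were called higher and 309 lower. The log2 change of the ratio was 4.52 for cid14, 4.14 for dis3, 3.47 for rrp6, 3.35 for pab2, 2.86 for mtr4, 2.70 for red1 and 1.92 for mmi1, and 0.07 for dhp1 (95% interval -0.61 to 0.75, limma adjusted p = 0.848). The centred value and the ratio of dhp1 cover its whole locus. There, reads of the nested gene SPAC26A3.11 were 63.8% and 75.4% of antisense reads in spt6-1, and 96.5% and 98.2% in WT. With a pseudocount of 0.1 red1 (4.17) stood above pab2 (3.76) and mtr4 (3.01), so the order below dis3 depends on the pseudocount. With each library centred on its median, 5 of the 8 ratios were called higher, mmi1 (-0.15) and red1 (0.63, limma adjusted p = 0.0608) being lost, and with quantile normalization 6 were. Of all 4682 ratios, 889 were called higher and 1977 lower with centring, and 1178 and 1197 with quantile normalization.

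**Figure D4:**
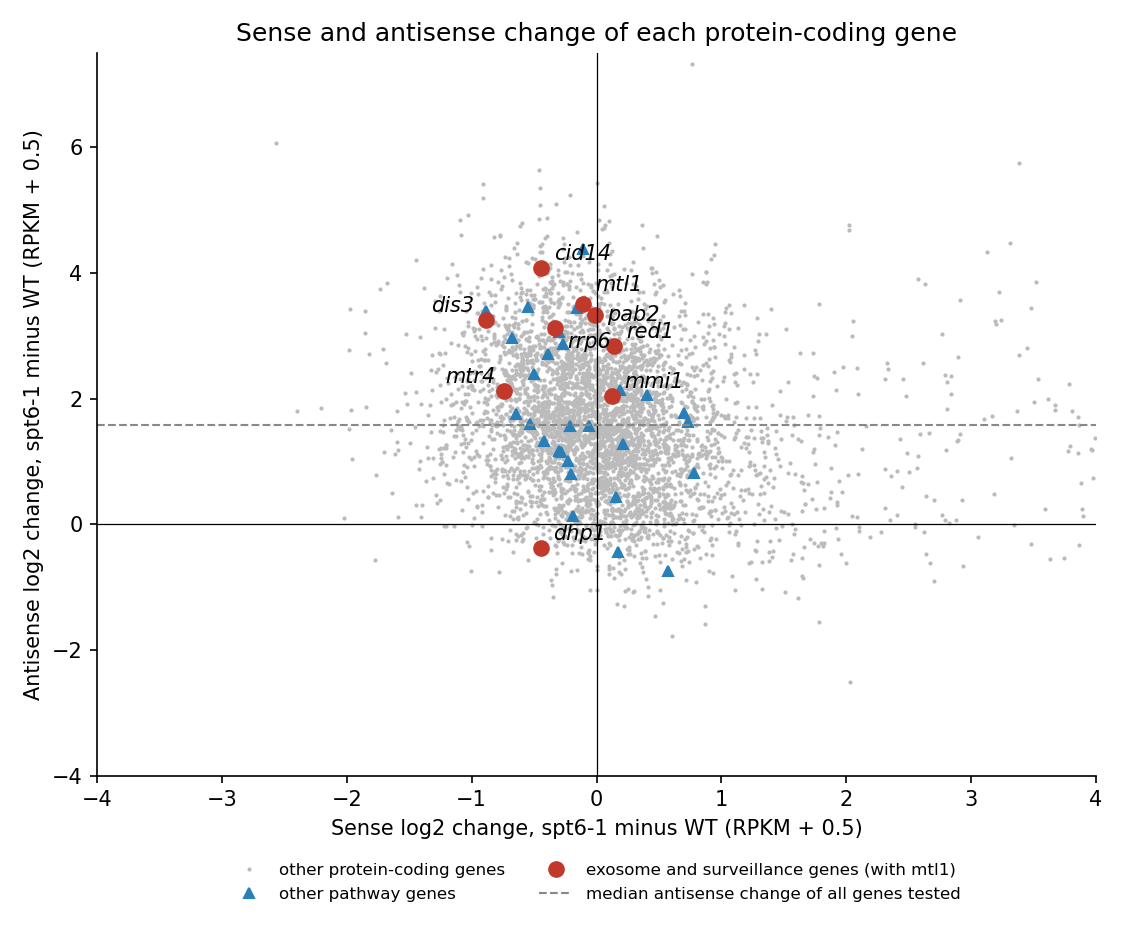
Sense log2 change (horizontal) against antisense log2 change (vertical), spt6-1 minus WT, for 4682 protein-coding genes (grey; 31 lie outside the axes), with the exosome and surveillance genes in red, the other pathway genes as blue triangles and a dashed line at the median antisense change (1.58). All the red points but dhp1 lie above the dashed line, and of these dis3 (-0.89) and mtr4 (-0.74) lie furthest left. Of the red points, cid14, rrp6, red1, mmi1 and mtl1 passed the antisense filter through the spt6-1 libraries alone, so their height is a description.

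The order of sense levels differed between the strains. In spt6-1, pab2 was highest (58.0 RPKM on average), followed by rrp6 (46.2) and dis3 (32.6), which did not overlap one another. Below them mmi1 (23.8), mtl1 (22.5), dhp1 (21.6), mtr4 (20.9), red1 (19.2) and cid14 (16.4) each overlapped the next. In WT, dis3 (61.1), pab2 (58.6) and rrp6 (58.3) overlapped at the top and mtr4 (35.3) and dhp1 (29.3) followed without overlap. The values of mtl1 (24.3) and cid14 (22.5) lay inside the range of mmi1 (22.2), and red1 (17.3) overlapped mmi1 too. The libraries of dis3 and rrp6 thus lay apart in spt6-1, with dis3 lower, and overlapped in WT.

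The rest of the pathway was described with 28 further genes. On the sense strand 2 were higher in spt6-1, 2 were lower and 24 did not pass, with a median log2 change of -0.21. Over all features 21.8% were called higher and 6.67% lower, and over protein-coding genes 12.1% and 8.2%. None of the 11 exosome core subunits and cofactors passed in either direction; their log2 changes lay between -0.50 and 0.21, and 1 was lower at an unadjusted p under 0.05. Of the 9 MTREC partners 1 was higher, of the 6 termination and Dhp1 partners 1 was higher and 2 were lower, and of air1 and erh1 (partners in TRAMP and of Mmi1) neither passed. On the antisense strand 24 of the 28 were higher, cbc2 was lower, and pcf11, rrp42 and csl4 did not pass, where 81.9% of genes tested were called higher and 1.65% lower. As 15 of the 28 were under 0.5 antisense RPKM in both WT libraries and were tested through spt6-1 alone, these counts are a description. With no filter on low values 23 were higher and 1 lower.

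The 2 that rose were ctr1 and din1. Sense RNA of ctr1, an MTREC partner gene, was 21.5 and 15.6 RPKM in spt6-1, against 11.5 and 9.51 RPKM in WT, 1.71-fold higher (limma adjusted p = 0.0410). For din1, which encodes the partner of Dhp1, it was 84.2 and 73.3 RPKM in spt6-1, against 48.1 and 48.2 RPKM in WT, 1.62-fold higher (limma adjusted p = 0.0476). Neither pair overlapped. Both calls ended under centring (limma adjusted p = 0.0634 and 0.0742), and without most single libraries: ctr1 passed only without spt6-1 replicate 2 (0.0440; 0.195, 0.0723 and 0.158 without spt6-1 replicate 1, WT replicate 1 and WT replicate 2), and din1 gave 0.181, 0.0872, 0.143 and 0.125 without spt6-1 replicates 1 and 2 and WT replicates 1 and 2.

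The 2 that fell were rhn1 and dbl8. For rhn1, a termination factor gene, sense RNA was 9.57 and 10.6 RPKM in spt6-1, against 18.3 and 19.8 RPKM in WT, 1.84-fold lower (limma adjusted p = 0.0120). Its antisense RNA was 9.66 and 10.3 RPKM in spt6-1, against 0.462 and 0.526 RPKM in WT, 10.5-fold higher. In WT only replicate 2 reached 0.5 antisense RPKM, so rhn1 passed the filter with the help of spt6-1 values and is given without a test. Antisense RNA was 50.2% and 49.2% of both strands in spt6-1 and 2.46% and 2.59% in WT. For dbl8, the second Sen1-like helicase gene, sense RNA was 12.5 and 10.1 RPKM in spt6-1, against 19.1 and 17.4 RPKM in WT, 1.60-fold lower (limma adjusted p = 0.0395). The rhn1 call was lost without spt6-1 replicate 1 (0.0748) or WT replicate 2 (0.0574), and that of dbl8 without any 1 library (0.0720, 0.187, 0.156 and 0.0900, without spt6-1 replicates 1 and 2 and WT replicates 1 and 2).

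Next in size of sense change, and not called, were seb1 (log2 change 0.73), air1 (-0.64), cbc2 (0.57) and sen1 (-0.55), with limma adjusted p from 0.0828 to 0.0969. With quantile normalization air1 was called lower (limma adjusted p = 0.0466), and sen1 was called lower there (limma adjusted p = 0.0448) and under centring (limma adjusted p = 0.0470). The termination factor gene seb1 had 136 and 96.7 sense RPKM in spt6-1, against 75.8 and 62.2 RPKM in WT. Antisense RNA of cbc2, which encodes a subunit of the nuclear cap-binding complex, was the only one of the 28 called lower, with 9.83 and 9.54 RPKM in spt6-1, against 16.9 and 16.3 RPKM in WT, 1.68-fold lower (limma adjusted p = 0.00401). Features overlapping the 28 genes were not looked up. Whether their antisense reads include those of another gene was therefore not tested. The other cap-binding gene, cbc1, had 28.4 and 11.9 antisense RPKM in spt6-1, against 0.461 and 0.361 RPKM in WT, which is under the filter in both WT libraries.

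**Figure D5:**
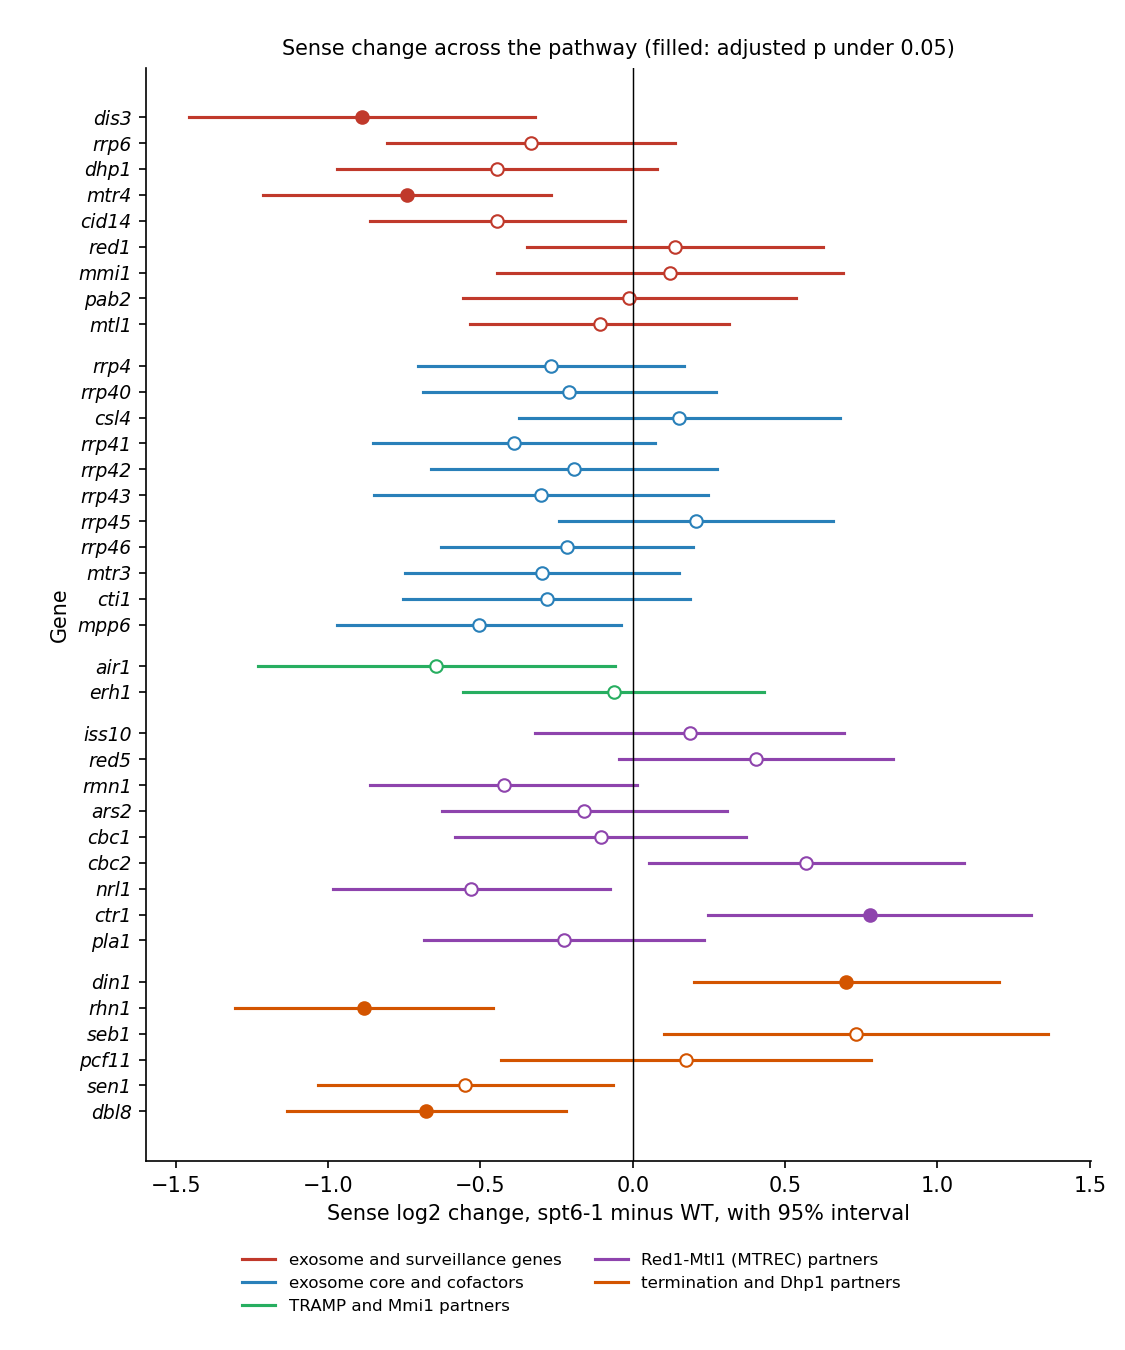
Sense log2 change, spt6-1 minus WT, with its 95% interval for the 8 genes, mtl1 and the 28 other pathway genes, in colours by group; filled points have a limma adjusted p under 0.05. The filled points are dis3 and mtr4, and, among the other genes, rhn1 and dbl8 to the left and ctr1 and din1 to the right.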

How the data were processed

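Strand-specific RNA-seq of 2 spt6-1 and 2 WT libraries was analysed from the deposited table of RPKM values, 1 sense and 1 antisense value per feature and library. Reads were aligned with TopHat to ASM294v2, per the submitters' processing notes; the counter is not given in the sources used here. Whole reads were recovered from the authors' RPKM (100% of values whole within 0.01 read), with library denominators of 27994342 and 17272448 reads in spt6-1 and 35917252 and 17201744 in WT. The denominators are not totals of the recovered reads. In both groups the denominator was below the recovered sense reads in replicate 1 and above them in replicate 2. With these denominators 1 read per kilobase is 0.0357 and 0.0579 RPKM in spt6-1 and 0.0278 and 0.0581 RPKM in WT. A deposited list of splice junctions was not used.

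Sense values of all features that reached 1 RPKM in 2 or more libraries, antisense values of coding genes that reached 0.5 RPKM in 2 or more, and their log2 ratio were fitted with limma 3.58.1 in R 4.3.3 (lmFit, eBayes with a trend) on log2(RPKM + 0.5), threshold 0.05 on the adjusted p. The script was tested on simulated data. Alternatives were other pseudocounts, no filter, centring, quantile normalization, no trend, voom on the recovered reads, a replicate block and leaving out each library; centring on the median protein-coding gene and a fit of protein-coding genes alone were chosen after seeing the data. Reads inside a gene that lies wholly in another were subtracted by count; this assumes that a read was counted for every feature it overlaps.

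The genes and lists were chosen with earlier results of these data known. Named genes are the 9 listed, spt6, features overlapping or nearest to the 9, and, of 28 other pathway genes (10 matched by the table's symbols, 18 through RefSeq), those past the sense threshold and the next 4 by size of sense change; cbc1 and the genes outside the majority on the antisense strand were named after their values were seen. Coding coordinates of the table were identical to RefSeq's ASM294v3 for 96.8% of 5123 genes and for all 9 genes. No word of 35 bases in the 9 loci occurs elsewhere in that genome.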

Additional observations from a re-analysis of the deposited data

How the results depend on the processing

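The 7 antisense calls among the 8 genes held under each alternative except that mtr4 and mmi1 lost theirs when libraries were centred on the median feature (mtr4 0.03) and mmi1 with quantile normalization (0.04). The sense calls were weaker: 2 of the 8 genes were lower as reported, 0 with no filter on low values, and 0 to 1 when 1 library was left out. With a replicate block the count was 2 again (limma adjusted p = 0.0172 for dis3 and 0.0214 for mtr4), and 3 of the 28 other genes were lower, air1 (limma adjusted p = 0.0272) joining those reported. No label says that libraries of the same replicate number were handled together. Differences of sense values between replicates 1 and 2 still correlated between the groups (0.323). Ribosomal RNA made up 17.8% of sense reads in spt6-1 and 12.8% in WT in replicate 1, against 3.73% and 6.43% in replicate 2. The block moved the count over all features to 1628 higher and 582 lower, against 1426 and 437. A lower antisense call, that of dhp1, appeared under centring (1), quantile normalization (1) and without WT replicate 1 (0 to 1 over the libraries left out), and a lower ratio call under centring (1), where 5 of 8 ratios were higher (6 with quantile normalization). Of the 28 other genes, 2 were higher on the sense strand as reported, 1 with no filter, without a trend, with coding-gene centring or with coding genes alone, 0 with centring or quantile normalization, and 0 to 1 with a library left out; 2 were lower as reported, 1 with no filter or no trend, 4 with centring, 6 with quantile normalization and 0 to 1 with a library left out. Over all 6547 features the sense counts were 1229 higher and 606 lower with centring, and 801 and 998 with quantile normalization. The antisense calls of the 28 genes were 24 higher and 1 lower as reported, 8 and 15 with centring, and 9 and 8 with quantile normalization. Over the 4728 genes tested, antisense calls were 3872 higher and 78 lower as reported, 961 and 2406 with centring, and 1316 and 1494 with quantile normalization. The cause of these moves was not tested. Centring takes the same amount off the log2 change of every gene in a fit, so it also turned the sign of antisense rises of more than 3-fold (air1, din1, seb1). Signs turned for the dhp1 ratio (-2.002 centred, -0.73 quantile, -0.25 to 0.39 with a library left out), red1 sense (-0.035 to 0.31 with a library left out), mmi1 sense (-0.0016 quantile, -0.16 to 0.40 with a library left out), mmi1 antisense (-0.052 centred), the mmi1 ratio (-0.15 centred, -0.085 quantile), pab2 sense (0.016 voom, -0.16 to 0.14 with a library left out) and the antisense values of air1 (-0.34 centred, -0.34 quantile), ctr1 (-1.27 centred), din1 (-0.32 centred, -0.092 quantile) and seb1 (-0.46 centred). Depth limits WT antisense values, which rest on 4 to 41 reads for cid14, rrp6, red1, mmi1 and pab2.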

Other observations

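Of 5 convergent neighbours that share bases with the 3′ ends of dis3, red1, cid14, dhp1 and mtl1, those of dis3 and red1 were called lower on their own sense strand in spt6-1 and the other 3 were not called. Among the protein-coding genes tested 8.2% were called lower. The gene nested in the 3′ part of dhp1, SPAC26A3.11, was called lower as well (1.82-fold, limma adjusted p = 0.0390). The neighbour of dis3, SPBC26H8.11c (the4 in RefSeq, overlap 122 bases), had 34.2 and 54.2 sense RPKM in spt6-1, against 115 and 108 RPKM in WT, 2.56-fold lower (limma adjusted p = 0.0124). The neighbour of red1, asa1 (overlap 68 bases), had 17.0 and 18.5 sense RPKM in spt6-1, against 43.6 and 48.2 RPKM in WT, 2.55-fold lower (limma adjusted p = 0.00280). The log2 change was 0.34 for SPAC12G12.12 at cid14 (limma adjusted p = 0.376), 0.37 for cnt6 at dhp1 (limma adjusted p = 0.266) and -0.50 for rdl1 at mtl1 (limma adjusted p = 0.0972). The antisense strand of dis3 and of red1 is the sense strand of these neighbours, and it was higher over dis3 and red1 in the same libraries. Antisense RNA was also higher over cid14 (16.9-fold) and mtl1 (11.4-fold), whose neighbours were not called. The same was seen over dhp1 outside SPAC26A3.11 (8.95-fold without a pseudocount). A link between the 2 kinds of difference was not tested.

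Antisense values of the neighbours varied. For ago1, which ends 17 bases from mmi1, antisense RNA was 11.9 and 11.7 RPKM in spt6-1, against 0.225 and 0.137 RPKM in WT, 18.1-fold higher, while its sense RNA was not called (log2 change -0.26). For cnt6, which overlaps dhp1 by 154 bases, it was 13.9 and 11.9 RPKM in spt6-1, against 0.155 and 0.118 RPKM in WT, 21.0-fold higher. Both were under 0.5 antisense RPKM in both WT libraries and are given without a test. By contrast rdl1, which shares 13 bases with mtl1, had an antisense log2 change of 0.03 (limma adjusted p = 0.863).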
